A study of Mus musculus with 20 samples.

Results

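The genes described here encode 2 related neuropeptides, somatostatin (Sst) and cortistatin (Cort), and 4 of the receptors that bind them (Sstr1, Sstr2, Sstr3 and Sstr4). They were taken as a named list, by gene symbol, and make up 6 of the 19214 genes counted. All 6 were found in the tables and all 6 passed the filter on low counts. Sstr5, the remaining receptor of the family, was measured as well and is given beside them.

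The tissue was the bed nucleus of the stria terminalis, abbreviated BNST, a part of the extended amygdala. It came from female and male mice in a model of anxiety by chronic restraint stress (CRS), the repeated confinement of an animal. The 20 libraries formed 4 groups of 5 by the sample titles: female controls, susceptible females, male controls and susceptible males. The labels place sex under genotype and give the treatment as Control or Susceptible. No strain, age or duration of stress stands in the labels, and nothing there says how susceptibility was judged or whether control animals were handled. Nor do they say that each library came from its own animal, so p-values measure only how far these libraries scatter, and that scatter may be technical. Bulk tissue was sequenced, so fewer cells of a type cannot be told apart from less RNA per cell.

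Somatostatin is a peptide made by a class of GABA neurons that inhibit their neighbours, and cortistatin is its close relative, best known from cortical interneurons. Both peptides bind the same receptors, which couple to Gi/o proteins, lower cyclic AMP and open potassium channels of the GIRK type, so that the receiving cell becomes less excitable. Within the extended amygdala, to which the BNST belongs, somatostatin neurons have been studied for their part in fear and anxiety.

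The close relation of the peptides is visible where the mature hormone is encoded, at the end of each coding sequence. The last 45 coding bases before the stop codon are given from the GRCm38 genome, read on the minus strand, with the bases that are identical after alignment in capitals. Sst lies on chr16:23889732-23889776 and Cort on chr4:149125267-149125311, each in the last coding exon. With Cort shifted by 3 bases, 31 of 42 aligned bases were the same.
Sst: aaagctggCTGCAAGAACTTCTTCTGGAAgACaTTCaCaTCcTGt
Cort: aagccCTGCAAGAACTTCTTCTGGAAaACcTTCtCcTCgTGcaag
The longest exact run shared by the transcripts of these 2 genes was 21 bases, and the longest shared by any pair of the 6 genes was 23 bases, between Sstr1 and Sstr3. How reads with several matches were counted is not given in the sources used here.

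Somatostatin transcription is a textbook example of control by cyclic AMP through the cAMP response element, the palindrome TGACGTCA, which reads alike on both strands. It was searched for in the RefSeq promoter windows of GRCm38.p6, which run from 250 bases before to 50 after each listed start. The table held 6 windows for 5 of the 6 genes, 2 of them for Sstr3. The full motif was present in the windows of Sst and Sstr2, and in 588 of all 32851 windows (1.79%). The 5-base parts TGACG or CGTCA, which are each other's reverse complement and which lie within the full motif, occurred in 20.8% of all windows. Cort and the first Sstr3 window held 1 such part each, while the second Sstr3 window and that of Sstr4 held none. Each stretch is given on the gene's own strand, with the motif in capitals, at chr16:23890874-23890903 (Sst, minus), chr11:113619258-113619287 (Sstr2, plus), chr4:149126764-149126793 (Cort, minus) and chr15:78544337-78544366 (Sstr3, minus).
Sst: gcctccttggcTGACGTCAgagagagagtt
Sstr2: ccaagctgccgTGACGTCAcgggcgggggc
Cort: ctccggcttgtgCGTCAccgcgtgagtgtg
Sstr3: ggagatggggggTGACGtaccaggtgcggg
The motif began 48 bases before the RefSeq start in Sst, 58 in Sstr2, 18 in Cort and 9 in Sstr3. GENCODE M21 places the start of Sst 114 bases further upstream, which puts the Sst motif downstream of that annotated start. It places the start of Sstr3 340 bases upstream of the first RefSeq start, so that the Sstr3 match lies downstream of the annotated start too. Whether these matches fall within exons was not checked. These matches describe letters in a window and not binding.

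In GENCODE M21 on GRCm38, all 6 genes are annotated as protein coding. Sst spans chr16:23889573-23890958 and Cort chr4:149125034-149126763, both on the minus strand. Sstr1 spans chr12:58211772-58214444, Sstr2 chr11:113619342-113626028 and Sstr4 chr2:148395344-148396767, all on the plus strand, and Sstr3 spans chr15:78537008-78544685 on the minus strand. Only Sstr2 overlaps another gene in that annotation: it lies within the span of Slc39a11, on the opposite strand, with 0 shared exon bases.

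Total counts per library ranged from 14637636 to 17862840. Markers fixed for the BNST were all detected: the 10 genes summed to 652.7 to 932.5 CPM (counts scaled to a library total of 1000000) in female controls, 588.6 to 1257 in susceptible females, 774.1 to 1249 in male controls and 883.1 to 1011 in susceptible males. Of these markers, Penk had the highest mean over the 20 libraries, at 534.1 CPM, followed by Zic1 at 195.2 CPM. Prkcd, which is on the thalamic marker list too, ranged from 19.2 to 349.7 CPM. The aromatase gene Cyp19a1 stayed between 0.066 and 1.40 CPM. The sums are thus weighted to a few abundant genes and do not measure how much BNST a library held. Markers of adjoining regions were present in very unequal amounts. The 10 striatal markers summed to between 531.2 and 5422 CPM, and the 10 hypothalamic markers to between 7.931 and 485.3 CPM. Slc17a7, the vesicular glutamate transporter of cortical excitatory neurons, reached 632.4 CPM in female control 5, 719.4 in susceptible female 5 and 611.4 in male control 5, against a median of 107.6 over the 20 libraries. Pmch, the hypothalamic gene for melanin-concentrating hormone, exceeded 1 CPM in 5 libraries (female controls 1, 2 and 3, susceptible female 4 and susceptible male 5).

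To compare genes, CPM was divided by the length of all annotated exons in kilobases. On that scale Sst was the most abundant of the family at 152.7 ± 22.1 CPM per kb (SD, n = 20). Sstr1 followed at 5.93 ± 1.68, Sstr2 at 5.56 ± 2.02, Sstr4 at 3.60 ± 1.32, Sstr3 at 2.24 ± 0.954, Cort at 1.25 ± 1.25 and Sstr5 at 0.994 ± 0.414 CPM per kb. Sst thus stood 25.8-fold above the highest receptor, and it was above Sstr1 in 20 of 20 libraries. Neighbours further down the order were less clearly separated. Sstr1 exceeded Sstr2 in 12 of 20 libraries, with a mean log2 ratio of 0.11 ± 0.79 (SD), so these 2 receptors did not differ beyond their spread. Sstr2 exceeded Sstr4 in 17 libraries (log2 ratio 0.65 ± 0.53), Sstr4 exceeded Sstr3 in 18 (0.70 ± 0.64) and Sstr3 exceeded Cort in 19 (1.24 ± 1.23). Cort and Sstr5 could not be ordered, with Cort higher in 11 of 20 libraries. By group means, the order was the same in both control groups. In susceptible females Sstr2 (7.11 CPM per kb) was above Sstr1 (4.90), and in susceptible males Sstr5 (1.18) was above Cort (0.938).

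The libraries varied little in Sst and widely in the other members. The SD of log2 CPM over all libraries was 0.21 for Sst, close to the median of 0.20 for the 14050 tested genes that averaged 1 CPM or more. It was 0.42 for Sstr1, 0.46 for Sstr2, 0.54 for Sstr4, 0.58 for Sstr3 and 0.99 for Cort, whose spread was larger than that of 98.4% of those genes. Cort itself averaged 0.8465 CPM, so it was ranked only against genes with higher mean counts. The part of counting noise in its spread was not tested.

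Stress and sex were compared with edgeR's quasi-likelihood test, fitted over all 14884 genes that passed the filter, with p-values adjusted by the Benjamini-Hochberg method and a threshold of 0.05. Of the 6 members, 0 passed in any of the 6 comparisons. In susceptible against control females edgeR called 0.0% of all genes, and 871 genes had an unadjusted p under 0.05, Sstr1 among them. In males edgeR again called 0.0% of genes, with 1439 genes under an unadjusted 0.05 and no member among them. The mean of both stress effects (0.0% called, 1147 genes under an unadjusted 0.05) had Sstr3 among the latter, and the difference between the sexes in the stress effect (0.0% called, 1230 genes) had Sstr1. Male and female controls differed in 0.511% of genes by edgeR's adjusted p, and susceptible males and females in 0.047%. Unadjusted, 2862 and 935 genes were under 0.05 in these sex comparisons, with 0 members in the former and Sstr2 in the latter.

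DESeq2 called 0 members wherever it gave an adjusted p. For stress in males (24 genes called) and for the mean stress effect (29 called) it gave one for Sst alone, since its filter on mean counts set the other 5 members aside, and between control sexes it gave none for Cort. For stress, limma voom with quality weights called 0 members in either sex, with 0 genes called in females and 671 in males. The libraries of 2 groups never separated fully for a member: 0 of 6 had CPM that did not overlap between groups, against 0.457% of genes for stress in females, 2.44% for stress in males, 3.89% between control sexes and 0.779% between susceptible sexes.

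**Figure D1:**
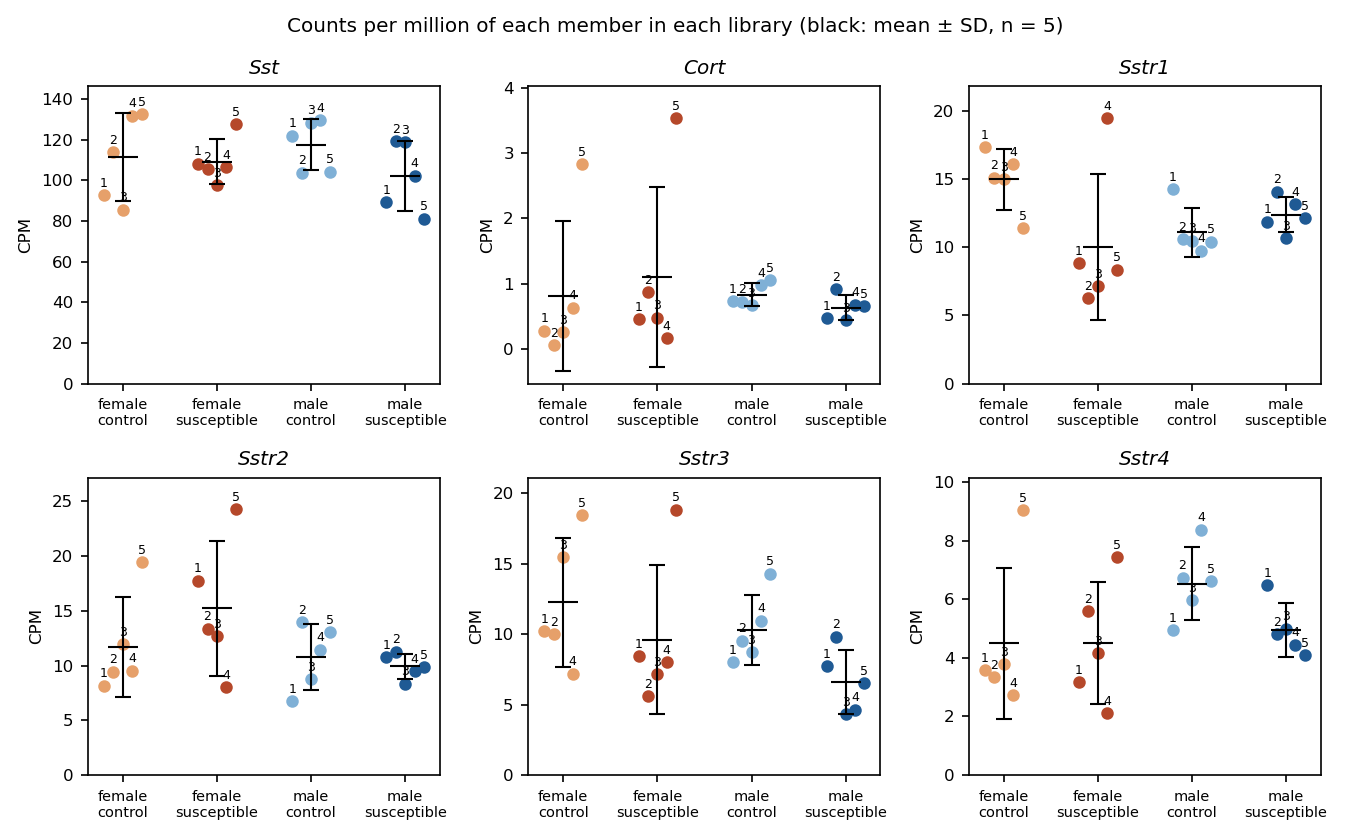
CPM (vertical axes, linear) of the 6 genes in every library, by group; points carry the replicate number, and black bars give the mean ± SD of 5 libraries. Library 5 of the female controls and of the susceptible females is the highest of its group for Cort, Sstr2, Sstr3 and Sstr4, and susceptible female 4 stands alone at 19.5 CPM of Sstr1.

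Sst was expressed at a steady level in all groups. Female controls 1 to 5 had 92.9, 113.8, 85.6, 131.9 and 132.6 CPM, and susceptible females 1 to 5 had 108.3, 105.7, 97.8, 106.4 and 127.7 CPM. Every susceptible female lay within the range of the controls, at a mean of 109.2 ± 11.1 against 111.3 ± 21.7 CPM (SD, n = 5 each). Male controls had 122.0, 103.9, 128.5, 129.7 and 104.3 CPM, and susceptible males 89.3, 119.3, 118.7, 102.4 and 81.1 CPM. In males 3 of 5 susceptible libraries were below all controls, and the remaining 2 overlapped them.

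The log2 fold change of Sst with stress was -0.03 ± 0.13 (SE) in females and -0.20 ± 0.13 in males, with edgeR adjusted p of 0.959 and 0.638. The 95% interval in females ran from 0.81-fold to 1.18-fold and in males from 0.72-fold to 1.05-fold. The difference between these effects was 0.18 ± 0.18 (edgeR adjusted p = 0.739). Sex differences were as small, at 0.08 ± 0.13 in controls and -0.10 ± 0.13 in susceptible mice. Sst had 1232 to 2261 counts per library, the deepest coverage of the 6 genes.

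Cort was close to the limit of detection. Counts ranged from 1 to 49 per library, and female controls 1 to 5 had 0.283, 0.058, 0.265, 0.636 and 2.83 CPM. Susceptible females had 0.462, 0.870, 0.481, 0.167 and 3.53 CPM. Library 5 in each female group therefore held most of its group's Cort counts (46 and 49), and the other 8 female libraries had 1 to 14 counts. Males were more even, from 0.672 to 1.06 CPM in controls and from 0.442 to 0.922 CPM in susceptible animals, with overlapping groups. Both outlying female libraries also had the highest Slc17a7 of their groups. Male control 5, with 611.4 CPM of Slc17a7, had 1.06 CPM of Cort.

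Its fitted log2 fold changes carried wide errors. They were 0.40 ± 0.73 (SE) for stress in females and -0.39 ± 0.76 in males, with edgeR adjusted p of 0.900 and 0.891. The 95% interval in females ran from 0.46-fold to 3.82-fold. Between control sexes the value was 0.04 ± 0.74, and it moved to 1.42 without female control 5. Between susceptible sexes it was -0.75 ± 0.75, and it turned to 0.37 without susceptible female 5. For stress in females it turned to -0.72 without susceptible female 5 and rose to 1.78 without female control 5.

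Sstr1 was the receptor whose female groups lay furthest apart. Female controls 1 to 5 had 17.4, 15.1, 14.99, 16.1 and 11.4 CPM. Susceptible females had 8.84, 6.28, 7.16, 19.5 and 8.36 CPM. Thus 4 of the 5 susceptible females were below every control, and susceptible female 4 was above every control. Male controls had 14.3, 10.6, 10.5, 9.75 and 10.4 CPM, and susceptible males 11.9, 14.1, 10.7, 13.2 and 12.1 CPM, so every susceptible male lay within the control range.

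The log2 fold change of Sstr1 with stress in females was -0.57 ± 0.23 (SE), a 0.67-fold level with a 95% interval of 0.48-fold to 0.93-fold. Its unadjusted p was 0.0202 and the edgeR adjusted p 0.774, so it did not pass. Without susceptible female 4 the value was -0.97 with an edgeR adjusted p of 0.0237, and Sstr1 was then called, 1 of 2 genes called over all in that setting. Over the other alternatives tried the estimate stayed negative and did not pass. In males the value was 0.16 ± 0.23 (edgeR adjusted p = 0.844), and the difference between the sexes was -0.73 ± 0.32 (edgeR adjusted p = 0.587). Male controls were at -0.43 ± 0.23 relative to female controls (edgeR adjusted p = 0.297). There, 4 of 5 male controls were below all female controls, and limma voom with quality weights called the difference (-0.48, adjusted p = 0.0285), as it did for 3290 of 14884 genes.

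Hypothalamic markers moved with Sstr1. In susceptible against control females all 10 hypothalamic markers had negative estimates, at a median log2 fold change of -1.12 against 0.006 for all genes, with 0 called. Their summed level ranged from 12 to 485.3 CPM in female controls and from 7.931 to 435.4 CPM in susceptible females, and no marker was at 0 throughout a group. Susceptible female 4 had 8.35 CPM of Pmch, while the other 4 susceptible females had 0.187 to 0.396 CPM. Leaving out all libraries over 1 CPM of Pmch kept 2 female controls and 4 susceptible females and gave -0.84 for Sstr1 (edgeR adjusted p = 1).

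Sstr2, the receptor with the highest group mean in susceptible females, varied from 6.77 to 24.3 CPM. Female controls had 8.16, 9.46, 11.9, 9.54 and 19.5 CPM, and susceptible females 17.8, 13.4, 12.7, 8.02 and 24.3 CPM. The groups overlapped, with a control (library 5) above all but 1 susceptible library and a susceptible library (4) below all controls. Male controls had 6.77, 13.96, 8.73, 11.5 and 13.03 CPM, and susceptible males 10.7, 11.3, 8.34, 9.51 and 9.88 CPM, which all fell within the control range.

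The log2 fold change of Sstr2 with stress was 0.38 ± 0.27 (SE) in females and -0.12 ± 0.27 in males (edgeR adjusted p = 0.776 and 0.911). Susceptible males were below susceptible females by an estimate of -0.61 ± 0.27, with an unadjusted p of 0.0351 and an edgeR adjusted p of 0.774. In that comparison the mean was 9.95 ± 1.13 CPM in males and 15.2 ± 6.13 in females (SD, n = 5 each). The estimate was -0.38 without female control 5 and susceptible female 5 and -0.26 with the cortical marker score as a covariate. Cortical and hippocampal markers moved the same way: 9 of 10 had negative estimates between susceptible sexes, at a median of -1.20 against -0.02 for all genes. Their sum ran from 147.6 to 1042 CPM in susceptible females and from 110.5 to 326.8 CPM in susceptible males, with none at 0 throughout a group.

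Sstr3, a receptor known for its place on neuronal primary cilia, had its lowest group mean in susceptible males. Male controls had 7.99, 9.53, 8.73, 11.0 and 14.3 CPM, and susceptible males 7.70, 9.81, 4.30, 4.63 and 6.52 CPM. Here 4 of 5 susceptible males were below all male controls, and susceptible male 2 was inside their range. Female controls had 10.2, 9.97, 15.5, 7.18 and 18.5 CPM, and susceptible females 8.45, 5.596, 7.16, 8.02 and 18.8 CPM. Susceptible female 5 was the highest library of all, and the female groups overlapped.

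The log2 fold change of Sstr3 with stress was -0.64 ± 0.32 (SE) in males (unadjusted p = 0.0583, edgeR adjusted p = 0.533) and -0.36 ± 0.31 in females (edgeR adjusted p = 0.809). The mean of both effects was -0.50 ± 0.22, with an unadjusted p of 0.038 and an edgeR adjusted p of 0.627, and the effects differed by 0.29 ± 0.45. In males 8 of 10 cortical and hippocampal markers had negative estimates too, at a median of -0.99 against -0.01 for all genes, with 0 called. Their sum ran from 196.4 to 858.8 CPM in male controls and from 110.5 to 326.8 CPM in susceptible males, with none at 0 throughout a group. With the mean of these markers as a covariate the male estimate of Sstr3 was -0.19, with an edgeR adjusted p of 0.945, and the mean stress effect was -0.22.

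Sstr4, a receptor gene without introns in this annotation, had its highest group mean in male controls. They had 4.94, 6.74, 5.98, 8.38 and 6.61 CPM, against 3.57, 3.34, 3.78, 2.73 and 9.05 CPM in female controls. All 5 male controls were above female controls 1 to 4 and below female control 5. Susceptible females had 3.17, 5.596, 4.15, 2.12 and 7.43 CPM and susceptible males 6.48, 4.81, 4.99, 4.45 and 4.08 CPM, so these groups overlapped. With 38 to 147 counts per library, Sstr4 was counted less deeply than the other receptors in the list.

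The log2 difference of male from female controls was 0.54 ± 0.31 (SE) for Sstr4 (edgeR adjusted p = 0.342). It was 0.95 with an edgeR adjusted p of 0.0275 without female control 5 and susceptible female 5, an alternative chosen after seeing the data, in which Sstr4 was the only member called. The same setting called 1042 genes in place of 76, and it kept male control 5, which had 611.4 CPM of Slc17a7. With the cortical marker score as a covariate the difference was 0.67 (edgeR adjusted p = 0.0992). By limma voom with quality weights, which lowers the weight of outlying libraries and called 3290 genes, the difference was 0.79 with an adjusted p of 0.0177. Without the libraries over 1 CPM of Pmch it was 0.14 (edgeR adjusted p = 0.982). In this comparison 9 of 10 hypothalamic markers had negative estimates (median -2.02), and their sum ran from 9.236 to 281.0 CPM in male controls. Stress gave -0.01 ± 0.32 in females and -0.40 ± 0.31 in males, with edgeR adjusted p of 0.997 and 0.704.

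**Figure D2:**
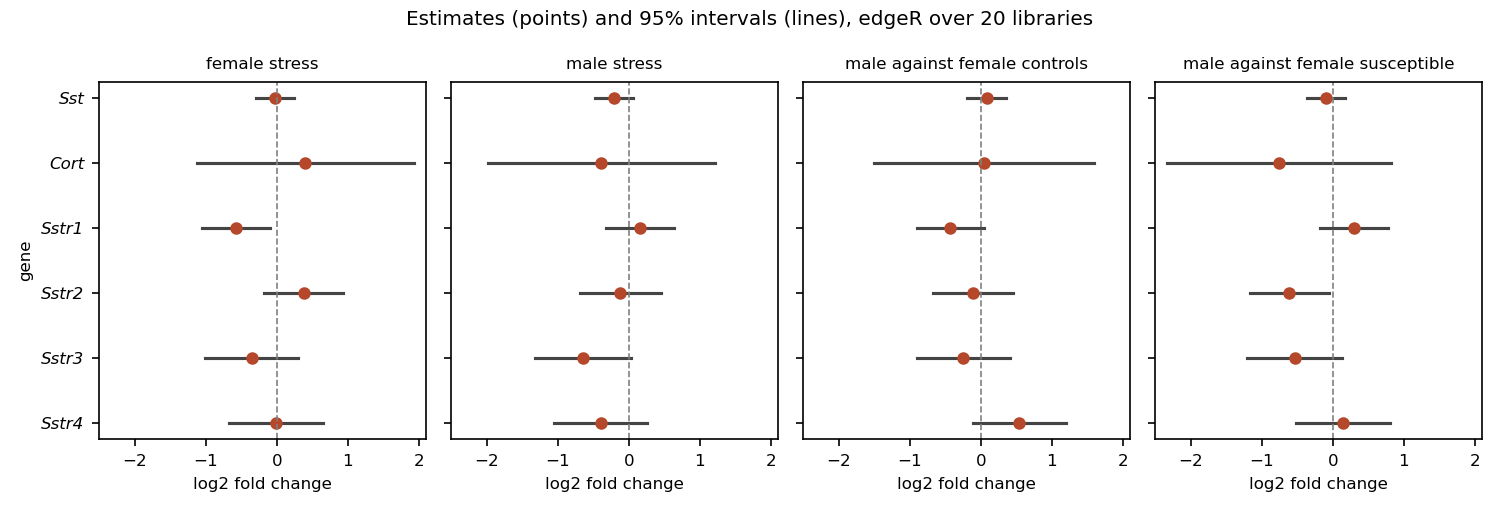
Log2 fold changes (horizontal axes) of the 6 genes in 4 comparisons, susceptible minus control for stress and male minus female for sex, as estimates with 95% intervals from the edgeR fit over 20 libraries. The intervals of Sstr1 for stress in females and of Sstr2 between susceptible sexes lie below 0 before adjustment, and those of Cort are the widest.

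The balance of receptors was described as each receptor's share of the summed CPM per kb of Sstr1 to Sstr5. Over all libraries Sstr1 held 33.1% ± 10.4 (SD, n = 20), Sstr2 29.99% ± 7.48, Sstr4 19.5% ± 5.83, Sstr3 11.9% ± 3.24 and Sstr5 5.52% ± 2.23. The summed level itself was similar across groups, from 16.9 ± 1.99 CPM per kb in susceptible males to 19.6 ± 3.79 in female controls (SD, n = 5 each). In susceptible females 1, 2, 3 and 5 the share of Sstr2 was between 40.7% and 44.7% and that of Sstr1 between 16.1% and 24.1%. Susceptible female 4 was reversed, with 20.96% of Sstr2 and 53.4% of Sstr1. Female controls 1 to 4 had 37.3% to 46.7% of Sstr1 and 20.9% to 28.3% of Sstr2. Female control 5 had 21.3% of Sstr1 and 34.8% of Sstr2. Male libraries had a Sstr1 share of 29.99% ± 7.92 in controls and 36.0% ± 2.96 in susceptible males (SD, n = 5 each). Shares within a library depend on each other, and they were not tested.

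**Figure D3:**
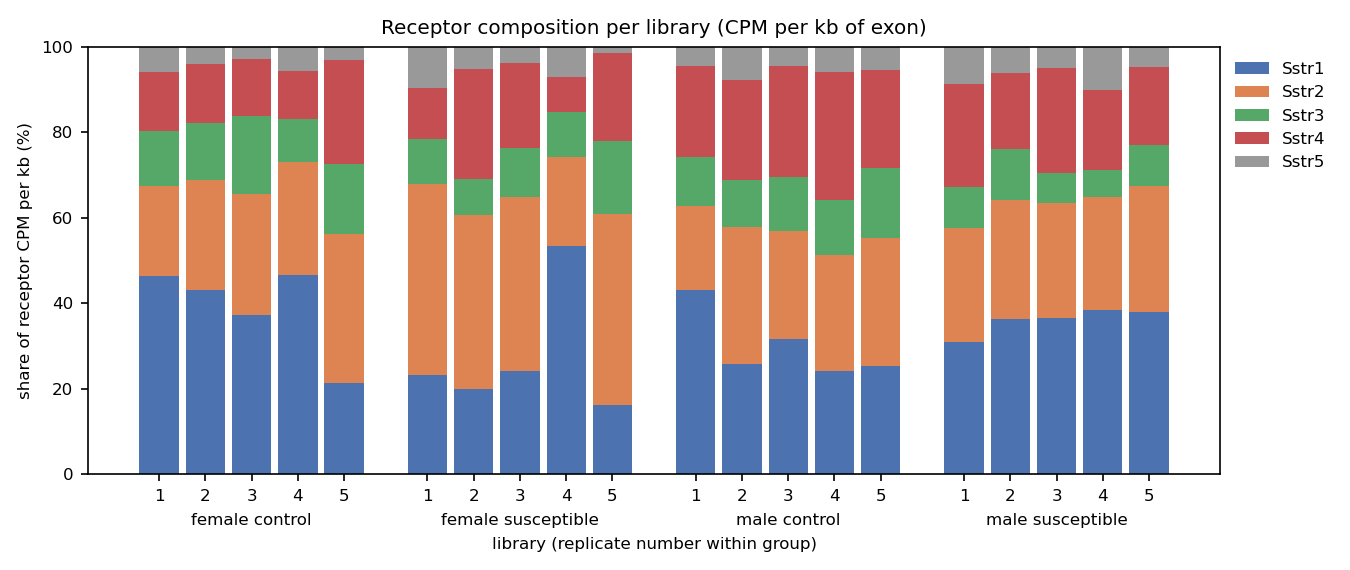
Share (%) of each somatostatin receptor gene in the summed CPM per kb of the 5 receptors, for each of the 20 libraries by group and replicate number. Susceptible females other than library 4 show Sstr2 as the largest share, at over 40%, and Sstr1 at under 25%.

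Relations between members across the libraries were computed on log2 CPM for all 15 pairs, with 2-sided permutation tests of 100000 resamples and Benjamini-Hochberg adjustment within the family. Of these, 5 had an adjusted p under 0.05, and 1 of them also did without the 2 libraries farthest from the median on the first gene. That pair was Cort and Sstr4 (Pearson's r = 0.742, adjusted permutation p = 0.003; Spearman's rho = 0.777, adjusted permutation p = 0.00225). Without the 2 farthest libraries r was 0.755, on deviations from the group means 0.773, and without female control 5 and susceptible female 5 it was 0.662. It was 0.777 within female controls, 0.592 within male controls and 0.934 within susceptible females. Within susceptible males r had the opposite sign, at -0.519 (n = 5 each). Cort had only 1 to 49 counts per library.

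Sstr1 ran opposite to Sstr2 (r = -0.595, rho = -0.681, adjusted permutation p = 0.0277 and 0.00967) and to Sstr4 (r = -0.536, rho = -0.588, adjusted permutation p = 0.0442 and 0.0379). Without the 2 farthest libraries these were -0.588 and -0.442, with adjusted permutation p of 0.081 and 0.201. For Sstr1 and Sstr2, r was -0.973 within female controls, -0.767 within male controls and -0.599 within susceptible females. Within susceptible males it had the opposite sign, at 0.74 (n = 5 each). For Sstr1 and Sstr4 these values were -0.91, -0.872, -0.766 and -0.254. Cort and Sstr2 (r = 0.648, adjusted permutation p = 0.0169) and Sstr2 and Sstr3 (r = 0.572, adjusted permutation p = 0.0329) also passed. Over all libraries their rho was 0.531 and 0.397, with adjusted permutation p of 0.0564 and 0.155. Without female control 5 and susceptible female 5 r was 0.273 and 0.248 (adjusted permutation p = 0.607 each). On deviations from the group means r was 0.74 and 0.704 (adjusted permutation p = 0.0147 each). Within male controls r was 0.509 and 0.713, and within susceptible males 0.6 and 0.939 (n = 5 each). Sst followed no receptor: its r with the 4 receptors lay between -0.094 and 0.29, with adjusted permutation p of 0.292 or more.

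Each member was also set against the mean log2 CPM of marker lists for 4 adjoining regions, 24 relations in all. An adjusted permutation p under 0.05 was reached by 15 of them, by 10 of these 15 also without the 2 farthest libraries, and by 13 of the 15 also on deviations from the group means. In both alternatives 8 of the 15 did so. Sstr1 was higher where hypothalamic markers were higher (r = 0.778, rho = 0.848, adjusted permutation p = 0.00084 and 0.00024). Without the 2 farthest libraries r was 0.736, and on deviations from the group means it was 0.735. Sstr2, Sstr4 and Cort ran opposite to the same markers, with r of -0.644, -0.721 and -0.696 and adjusted permutation p of 0.00744, 0.00264 and 0.00264. Their rho was -0.726, -0.762 and -0.696, and without the 2 farthest libraries r was -0.618, -0.709 and -0.603. Within susceptible males r with these markers was 0.247 for Sstr1, 0.138 for Sstr2, -0.774 for Sstr4 and 0.483 for Cort (n = 5). There Sstr2 and Cort had the opposite sign to their r over all libraries. Within each of the other groups every one of these genes kept that sign.

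Sstr3 followed the cortical and hippocampal markers (r = 0.851, rho = 0.737, adjusted permutation p = 0.00024 and 0.001). It did so without female control 5 and susceptible female 5, the 2 farthest libraries on that list (r = 0.747, adjusted permutation p = 0.004). Cort and Sstr2 had r of 0.631 and 0.701 with the same list, with adjusted permutation p of 0.00774 and 0.0035 and rho of 0.627 and 0.636. Without those 2 libraries r was 0.248 and 0.412, with adjusted permutation p of 0.404 and 0.142, and rho was 0.488 and 0.501. On deviations from the group means of all 20 libraries r was 0.753 and 0.792 (adjusted permutation p = 0.00943 and 0.0063). Within male controls, which hold neither library, r was 0.838 and 0.756, and within susceptible males 0.971 and 0.555 (n = 5 each). Sst tracked the striatal markers, with r = 0.599, rho = 0.592 and adjusted permutation p of 0.00988 and 0.0128, and with r = 0.658 without the 2 farthest libraries. This was not particular to Sst, since Cort, Sstr4 and Sstr1 had r of 0.59, 0.593 and -0.604 with that list. Their adjusted permutation p was 0.016, 0.00988 and 0.00988. Sst also ran opposite to thalamic markers (r = -0.548, adjusted permutation p = 0.0219), with r = -0.402 without the 2 farthest libraries (adjusted permutation p = 0.146). Choroid plexus markers fell into 2 separate sets of libraries, 14 at a mean log2 CPM of 1.502 to 2.951 and 6 at 4.173 to 5.812, so no correlation over all libraries was computed for them.

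**Figure D4:**
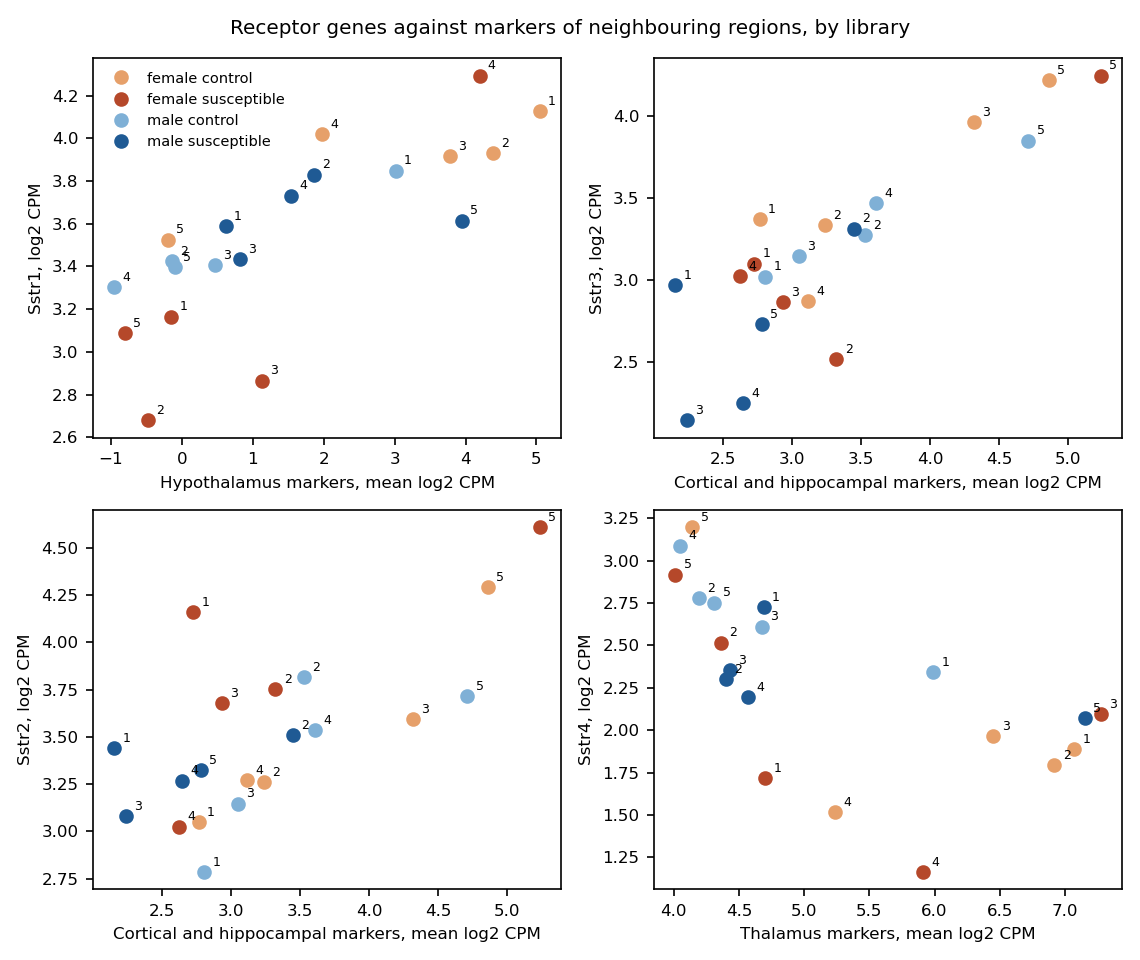
Log2 CPM of a receptor gene (vertical axes) against the mean log2 CPM of a regional marker list (horizontal axes) in 20 libraries, coloured by group and numbered by replicate. Sstr1 is high where hypothalamic markers are high (r = 0.778), Sstr3 and Sstr2 where cortical and hippocampal markers are high (r = 0.851 and 0.701), and Sstr4 is low where thalamic markers are high (r = -0.625).

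**Figure D5:**
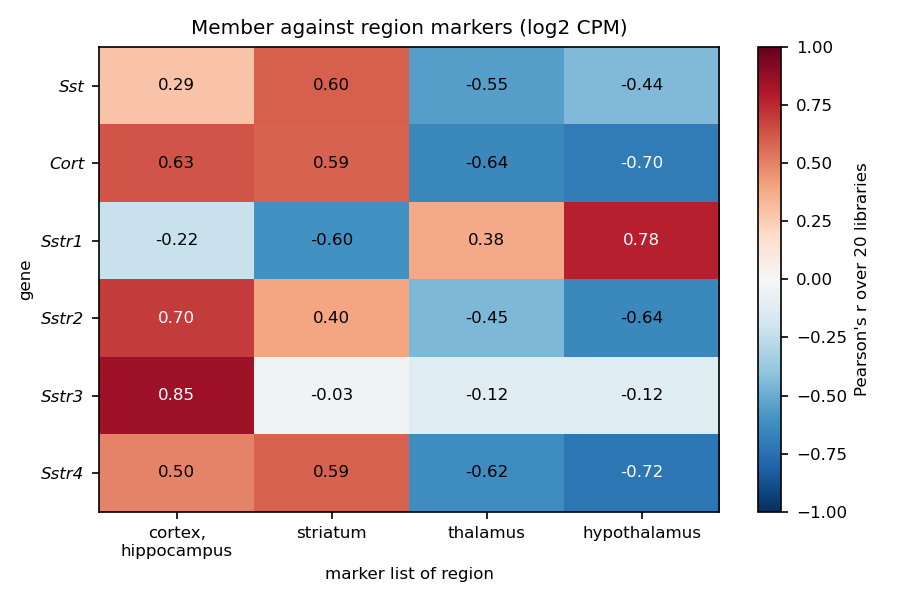
Pearson's r over 20 libraries between log2 CPM of each gene (rows) and the mean log2 CPM of the marker list of each region (columns), from red for positive to blue for negative. Sstr1 carries the opposite sign to Cort, Sstr2 and Sstr4 on the striatal, thalamic and hypothalamic lists.

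As a description with no test, the genes whose log2 CPM followed each member most closely were listed among the tested genes that averaged 1 CPM or more. For Sst the likeness was moderate, led by Zfp346, Susd1, Ell, Tmem191c and Amz1 with r between 0.753 and 0.761 over 20 libraries. Cort was followed by R3hdm1, Fam171b, Bcl6, Gria3 (an AMPA receptor subunit) and Prpf38b, with r of 0.875 to 0.903. Sstr1 was followed by Kcnc4 (a voltage-gated potassium channel), Doc2a, Nyap1, Prrg3 and Scly, with r of 0.843 to 0.905. For Sstr2 these were Otud1, Purg, Arpc3, Rundc3a and the glutamate transporter gene Slc1a1, with r of 0.86 to 0.927. Sstr3 was followed by Ak5, Bmp3, Ppfia3, Schip1 and the syntaxin gene Stx1a, with r of 0.873 to 0.889. Sstr4 was followed by Myh9, the postsynaptic scaffold gene Shank2, Cnnm1 and Prkce, with r of 0.909 to 0.931. Each set was picked from the highest of 14049 or 14050 values, and all share the same libraries.

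Genes around the peptides and receptors were counted from 4 lists. By edgeR's adjusted p, 0 of the 13 peptide processing and release genes passed in any comparison. Their median log2 fold change was -0.05 for stress in females and 0.05 in males, against 0.006 and -0.01 for all genes. At an unadjusted p under 0.05 there was 1 in each, Chga (-0.20 ± 0.09, SE) in females and the convertase gene Furin (-0.24 ± 0.08) in males, with edgeR adjusted p of 0.774 and 0.426. Between control sexes 4 of the 13 were under an unadjusted 0.05, against 19.2% of all genes, with the prohormone convertase gene Pcsk1 at -0.59 ± 0.17 and an edgeR adjusted p of 0.105.

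Of the 26 genes of Gi/o signalling and GIRK channels, 0 passed in any comparison. The median was -0.005 for stress in females and 0.013 in males, with 13 and 14 estimates above 0. At an unadjusted edgeR p under 0.05 there were 0 genes for stress in females and 1 for the mean stress effect, Grk3. It had -0.165 ± 0.071 (SE), with an edgeR adjusted p of 0.61. The GIRK channel gene Kcnj6 had -0.70 ± 0.36 for stress in females and -0.53 ± 0.25 for the mean stress effect. Its unadjusted edgeR p was 0.0637 and 0.05075, and its edgeR adjusted p 0.774 and 0.648. Between control sexes 5 of the 26 were under an unadjusted p of 0.05, near the 19.2% of all genes, among them Rgs7 (-0.21 ± 0.07), a regulator of G protein signalling, and Adcy5 (0.86 ± 0.31), the main adenylyl cyclase gene of the striatum and also 1 of the 10 striatal markers.

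Sstr5 and the ghrelin receptor gene Ghsr, which cortistatin also binds, did not pass in any comparison by edgeR. Sstr5 had 0.21 ± 0.37 (SE) for stress in females and 0.16 ± 0.37 in males, and Ghsr, at 0 to 3.95 CPM, had -0.77 ± 0.87 and 0.88 ± 0.89. Of the 14 transcription factor genes of the somatostatin lineage and promoter, 0 passed by edgeR, and 12 had positive estimates for stress in females (median 0.26 against 0.006 for all genes). Atf1, whose product binds the cAMP response element, had 0.25 ± 0.08 in females with an unadjusted p of 0.00656 and an edgeR adjusted p of 0.774. Dlx6, a gene of the forebrain GABA lineage, had 0.54 ± 0.22 with an edgeR adjusted p of 0.774. Striatal markers moved the same way in that comparison, with 10 of 10 positive estimates at a median of 0.86, and their part in the list's values was not tested.

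Of 14 markers of somatostatin interneurons other than the peptides, 0 passed by edgeR in any comparison. For stress 8 of 14 had positive estimates in females (median 0.12) and 11 of 14 in males (median 0.13). The estimates of Sst were -0.03 ± 0.13 (SE) in females and -0.20 ± 0.13 in males, both with 95% intervals that include 0. The summed level of the 14 markers ranged from 764.7 to 890.1 CPM in female controls and from 749.7 to 937.5 CPM in susceptible females. It ranged from 720.9 to 893.2 CPM in male controls and from 804.6 to 1011 CPM in susceptible males. The 4 GABA neuron markers had positive estimates in both sexes, at medians of 0.25 and 0.05, and 0 passed.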

How the data were processed

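The 20 libraries were deposited by the authors as raw read counts per gene, made with HISAT2 and featureCounts on mm10 per the submitters' processing notes. Versions, strandedness, the gene annotation and the handling of multiply matching reads were not given in the sources used here. Library totals ranged from 14637636 to 17862840, which leaves Cort with 1 to 49 counts.

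Groups followed the sample titles. The 6 genes and all gene lists were chosen with earlier results of these data known. Counts were scaled by TMM and tested in edgeR 4.0.16 (R 4.3.3; filterByExpr, robust quasi-likelihood fit, 1 mean per group, Benjamini-Hochberg over 14884 genes, threshold 0.05). Log2 CPM used a prior count of 2, and CPM per kb the merged exons of GENCODE M21, matched for 19180 of 19214 genes. Named genes were the 6 members, the 5 most similar genes to each, and those with the 2 smallest p in each pathway list and comparison, of which a part is printed; 1 gene that the rule names is not reported here. Correlations used numpy 2.4.6 permutations with 100000 resamples, where 1e-05 is the smallest p possible. Alternatives were DESeq2 1.42.0, limma 3.58.1 voom, other filters and size factors, the replicate block, fits of 2 groups, marker-based exclusions and covariate, and each library left out. The fit was tested on simulated counts. Of 40 pairs of libraries within groups, none agreed within sampling noise (lowest chi-square per gene 5.98).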

Additional observations from a re-analysis of the deposited data

Results flagged for a closer look

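In groups of 5 libraries, a library was picked out when its distance to the nearest other library exceeded 0.71 of the group's range (Dixon's 95% limit). Chance picks out about 1 in 20 groups, and 6 of the 24 sets of a gene and a group were picked out here. The same libraries recur, so these 6 are not independent of each other. Female control 5 stood apart with 2.831 CPM of Cort and with 9.046 CPM of Sstr4. Susceptible female 5 stood apart with 3.533 CPM of Cort and with 18.82 CPM of Sstr3. Both had the highest Slc17a7 of their groups, 632.4 and 719.4 CPM, and the part of cortical tissue in these values was not tested. Male control 5 had 611.4 CPM of Slc17a7 and was not picked out for any member. It had 1.06 CPM of Cort, 14.28 CPM of Sstr3 and 6.609 CPM of Sstr4. Susceptible female 4 stood apart with 19.48 CPM of Sstr1, and it was the only susceptible female with more than 1 CPM of Pmch, at 8.35 CPM. Susceptible male 5 had 23.51 CPM of Pmch, and its Sstr1, at 12.12 CPM, lay within the range of the other susceptible males. Male control 1 stood apart with 14.28 CPM of Sstr1.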

How the results depend on the processing

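Limits are the low counts of Cort, at most 49 per library, and female libraries that stand apart. Among the members' log2 fold changes under all alternatives, 56 changed sign, 4 newly passed the threshold and 1037 did neither. Members called moved from 0 to 2 with limma voom and to 1 without female control 5 and susceptible female 5, both between control sexes, and leaving out single libraries gave 0 to 1 for stress in females. The cause was not tested for any of these changes.

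Deviations of same-numbered libraries correlated with r of -0.436 to 0.642 for the female groups and 0.019 to 0.251 for the male groups. The highest value, 0.642, was that of female control 5 and susceptible female 5. With 5 pairs in a comparison, these values cannot decide whether the numbers pair the libraries. With the replicate block 0 members were called, Sstr1 for stress in females was -0.63, and Sstr4 turned to 0.0142. The libraries that correlated best with their own number were 2, 3, 2 and 1 of 5 for stress in females, stress in males, control sexes and susceptible sexes.

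With voom, Sst (0.0255) and Sstr4 (0.1449) turned positive for stress in females, Sstr2 between control sexes (0.0159) and Cort between susceptible sexes (0.0113). The cortical covariate gave Sstr4 0.1193 for stress in females, 0.0016 in males and 0.0605 for the mean, Cort 0.5747 and Sstr2 0.2777 for stress in males, Sstr3 -0.0509 for the difference of effects and Cort 0.5708 between susceptible sexes. Without libraries over 1 CPM of Pmch, Cort was -0.3984 for stress in females, -0.3947 for the mean, -0.0075 for the difference and -1.0617 between control sexes, and Sst was -0.146 for the difference and -0.1784 between control sexes. Without libraries over 100 CPM of Ttr, Cort was -0.144 for the mean and -0.6739 between control sexes. Without female control 5 and susceptible female 5, chosen after seeing the data, Sstr4 was 0.1613 for stress in females, Sstr2 0.1409 between control sexes and Cort 0.3696 between susceptible sexes.

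Leaving out 1 library at a time gave these ranges where a sign changed. For stress in females they were -0.1123 to 0.0401 for Sst, -0.7161 to 1.7797 for Cort and -0.2597 to 0.411 for Sstr4. For the mean effect they were -0.5488 to 0.6991 for Cort and -0.3229 to 0.0124 for Sstr4, and for the difference -0.3346 to 2.1612 for Cort and -0.1093 to 0.4777 for Sstr3. Between control sexes they were -0.0087 to 0.148 for Sst, -0.2648 to 1.4171 for Cort and -0.2309 to 0.1382 for Sstr2, and between susceptible sexes -1.0419 to 0.3685 for Cort and -0.033 to 0.4045 for Sstr4.

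Among correlations, without the 2 farthest libraries r turned to 0.005 for Sst and Sstr1, -0.074 for Sstr1 and Sstr3, 0.008 for striatal markers and Sstr3 and 0.013 for thalamic markers and Sstr3. On group deviations it was -0.066 for Sstr1 and Sstr3 and 0.135 for striatal markers and Sstr3. Without female control 5 and susceptible female 5 it was -0.204 for Sst and Sstr2, -0.09 for Sst and Sstr3, -0.101 for Cort and Sstr3, and 0.118 and 0.131 for Sstr3 with thalamic and hypothalamic markers. An adjusted permutation p under 0.05 was gained by Sstr1 (0.716, adjusted p = 0.00432) and Sstr2 (-0.555, 0.033) with thalamic markers without the 2 farthest libraries. On group deviations it was gained by Sstr2 with Sstr4 (0.77, 0.0147) and with thalamic markers (-0.614, 0.023), and lost by Sstr1 with Sstr2 (0.0898) and by Cort (0.104) and Sstr4 (0.0948) with striatal markers.

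Over all genes, counts of calls moved by more than 1.5 times as follows. Stress in females gave 0, and 0 to 2 leaving out single libraries (2 without susceptible female 4). Stress in males gave 24 with DESeq2 and 671 with voom in place of 0, and the mean effect 29 with DESeq2. Control sexes gave 76, against 455 with DESeq2, 3290 with voom, 653 with the covariate, 1042 without both libraries, 38 with no filter, 19 with 2 groups, 5 without high Ttr and 5 without high Pmch, and 6 to 458 leaving out single libraries. Susceptible sexes gave 7, against 15 with DESeq2, 11 with voom, 13 without high Pmch and 4 with the block, 2 groups or without high Ttr, and 6 to 20 leaving out single libraries.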

Other observations

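Some markers of endothelial cells and oligodendrocytes passed the test between control sexes. Over all genes 76 of 14884 (0.511%) were called there, 43 higher and 33 lower in males. Of 5 endothelial markers, 2 were called higher in males by edgeR and all 5 had positive estimates, at a median log2 difference of 0.87 against -0.002 for all genes. Of 8 oligodendrocyte markers, 1 was called lower in males and all 8 had negative estimates, at a median of -0.64. By the same test 0 of 6 astrocyte and 0 of 6 microglial markers were called, at medians of -0.20 and -0.06. None of these lists had a gene called for stress in either sex by edgeR.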
